A study of Mus musculus with 16 samples.

Results

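The genes described here are 39 mouse genes whose expression is known to rise in cells that receive an interferon signal. They were chosen by name, as the listed symbols found in the deposited table, and all 39 were found among its 20056 gene symbols. The libraries are poly(A) RNA-seq of 2 sorted populations, labelled mesenchymal stem cells (MSCs) and osteoblasts (OBs), from 8 mice. Of these mice, 4 were wild-type and 4 were miR-9-1-deficient, that is, CRISPR/Cas9 genome editing had been used to remove the function of the microRNA gene Mir9-1. The same animal number appears once under MSC and once under OB, which ties 1 library of each sort to every mouse. The 4 groups are wild-type MSCs, deficient MSCs, wild-type OBs and deficient OBs, with 4 libraries each. Mice A to D are wild-type and mice E to H deficient, lettered in label order with the same letter in both sorts. The labels name no age, sex, strain, sort gate, number of edited founder lines or treatment. The stated purpose was to examine miR-9-1 in the marrow environment that supports lymphocyte formation. Interferon treatment was not part of the design.

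Values are normalized counts, that is, read counts per gene divided by 1 size factor per library. Depth was 10148197 to 14246986 reads for MSCs and 15543693 to 18962771 for OBs. A gene with 0 reads may thus have had up to 3.52 to 4.51 normalized counts in an MSC library and 1.95 to 2.36 in an OB library (3 reads, 95% confidence, counting error only). Mir9-1 itself was at 0 in all 8 MSC libraries. In OBs it reached 5.50, 10.4, 0 and 2.94 normalized counts in mice A to D and 0, 1.95, 0 and 0 in mice E to H, too few to check the genotype in MSCs. The MSC libraries of mice A, E and F held 1848 to 3355 normalized counts of the Y-linked gene Ddx3y and 291 to 392 of the X-inactivation RNA Xist, while the other 5 held 29.8 to 78.1 and 11937 to 14158. All 8 OB libraries held both at once, with 649 to 1939 of Ddx3y and 3719.5 to 8053 of Xist, so it is not established that each OB library came from 1 mouse or that the 4 OB libraries of a group are independent. The summed level of 10 osteoblast markers was lower in the libraries labelled OB (174093 to 375524 in wild-type and 23883 to 125978 in deficient mice) than in MSCs (1188254 to 1583631 and 363711 to 892100.3). Col1a1 and Col1a2 made up most of these sums. Of the 10 markers, 2 (Col1a2 and Ibsp) were lower in every OB library than in every MSC library. Bglap and Dmp1 overlapped between the sorts in both genotypes. All 7 blood progenitor markers and 6 of 7 erythroid markers were higher in every OB library than in every MSC library. OB is therefore used below as the name of a sort, not as a statement of cell identity.

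Interferons are cytokines released when a cell senses viral nucleic acid or an immune signal. Type I interferons act through the receptor chains Ifnar1 and Ifnar2 and the kinases Jak1 and Tyk2 to assemble a complex that contains Stat2 and Irf9 and binds the interferon-stimulated response element in the promoters of its target genes. Interferon gamma acts through Ifngr1 and Ifngr2 on promoters that carry the gamma-activated site, and it raises Irf1, a transcription factor that binds response elements in turn. The proteins made from the target genes sense viral RNA, degrade or block it, modify proteins with the ubiquitin-like protein Isg15, or restrict pathogens at membranes and vacuoles. In bone marrow, interferon is known to act on blood-forming stem cells and on bone cells.

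The promoters are shown first, because their sequence played no part in choosing the genes. A window of 300 bases per gene start (250 before and 50 after the start, RefSeq on GRCm38.p6) was given for 31 of the 39 genes. No window was given for Dhx58, Oas2, Mx1, Mx2, Usp18, Rtp4, Parp9 and Parp14. The core of the response element was searched as GAAA, any 2 bases, GAAA on both strands. It was found for 18 of the 31 genes (58.1%), against 3.99% of 27025 genes in the reference table. With a C required after the second GAAA, which is a subset of the same matches, 14 of 31 (45.2%) and 0.944% of all genes had it. The gamma-activated site was searched as TTC, any 3 bases, GAA, which reads the same on both strands and can overlap the response element. It was found for 10 of the 31 genes (32.3%) and for 9.55% of all genes. A match describes letters in the window and does not show that a factor was bound. The 120 bases before the start are printed for 7 genes that were higher in OBs in both genotypes and for Irf1. The 7 come from the OAS, IFIT, guanylate-binding and immunity-related GTPase families and Isg15, and each held a core. No core was found for Ifitm1, Oasl1, Oasl2, Dtx3l, Ifi44, Xaf1 and Trim25, which were also higher in OBs in both genotypes. Irf1 was lower in OBs, and its window held a gamma-activated site and no response element core. Capitals mark matches to either motif, each sequence is read along the gene, and positions count back from the start.
Isg15, chr4:156200819-156200938, minus strand: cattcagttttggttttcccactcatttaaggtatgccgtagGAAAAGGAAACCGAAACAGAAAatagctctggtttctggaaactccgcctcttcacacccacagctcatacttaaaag
Ifit1, chr19:34640769-34640888, plus strand: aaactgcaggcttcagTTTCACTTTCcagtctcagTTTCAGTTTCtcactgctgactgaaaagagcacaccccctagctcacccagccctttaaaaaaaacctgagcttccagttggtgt
Oas1a, chr5:120907526-120907645, minus strand: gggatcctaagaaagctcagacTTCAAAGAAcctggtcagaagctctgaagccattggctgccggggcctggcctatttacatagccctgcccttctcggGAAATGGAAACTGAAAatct
Oas3, chr5:120777660-120777779, minus strand: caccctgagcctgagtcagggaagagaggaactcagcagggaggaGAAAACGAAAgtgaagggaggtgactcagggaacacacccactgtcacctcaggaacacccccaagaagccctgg
Gbp3, chr3:142559924-142560043, plus strand: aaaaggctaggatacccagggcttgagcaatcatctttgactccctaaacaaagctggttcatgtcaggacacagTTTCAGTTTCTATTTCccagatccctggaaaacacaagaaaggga
Igtp, chr11:58199436-58199555, plus strand: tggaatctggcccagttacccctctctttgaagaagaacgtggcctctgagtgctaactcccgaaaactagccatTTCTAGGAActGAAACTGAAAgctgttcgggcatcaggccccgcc
Irgm1, chr11:48871421-48871540, minus strand: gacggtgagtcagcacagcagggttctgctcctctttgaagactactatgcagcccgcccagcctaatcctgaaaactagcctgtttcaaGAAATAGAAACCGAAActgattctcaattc
Irf1, chr11:53769894-53770013, plus strand: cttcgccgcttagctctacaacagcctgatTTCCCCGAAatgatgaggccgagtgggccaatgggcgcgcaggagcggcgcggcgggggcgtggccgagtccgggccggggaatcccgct
The 3 matches of Isg15 overlap in 1 run from -78 to -57, and both matches of Ifit1 lie between -104 and -76. Matches of Oas1a and Gbp3 also overlap as pairs, from -20 to -5 and from -45 to -30. Irgm1 has its pair from -30 to -15, and Igtp has a gamma-activated site from -45 to -37 just before its core at -34 to -25.

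Several of the genes are neighbours on GRCm38. Oas2 (chr5:120730333-120749853), Oas3 (chr5:120753098-120777661) and Oas1a (chr5:120896256-120907521) form 1 cluster, and Ifit2, Ifit3 and Ifit1 lie side by side between chr19:34550694 and 34650009. Gbp7, Gbp3 and Gbp2 lie between chr3:142530342 and 142638008. Parp9 (chr16:35938470-35972605) and Dtx3l (chr16:35926511-35939151) overlap on opposite strands, and the library kit named in the labels does not mark strand, so reads in the overlap cannot be assigned to one of them. Near-identical copies exist for Ifit3, the Oas1 genes, the Ifitm genes, the guanylate-binding proteins and the immunity-related GTPases, and their values are uncertain in so far as reads were shared.

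The first comparison was OBs against MSCs within wild-type mice. Most of the antiviral effectors, the RNA sensors, the guanylate-binding proteins and the immunity-related GTPases were higher in OBs, while Stat2, Irf1, Ifit3, Mx2 and Ifi35 were lower. Of the 39 genes, 26 passed as higher and 5 as lower (limma, Benjamini-Hochberg adjusted p under 0.05 over 14696 genes). In the background, 34.4% of all genes tested passed as higher and 35.5% as lower. All 4 OB libraries lay above all 4 MSC libraries for 25 of the genes and below them for 5, where the background shares were 32.6% and 32.9%. The median log2 fold change of the 39 genes was 1.07, against 0.013 over all genes tested. In these bulk libraries, more cells of an expressing type and more RNA per cell cannot be told apart.

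The same comparison in deficient mice gave 29 genes higher and 3 lower (Stat2, Irf1 and Mx2), with a median of 1.43 against -0.023 over all 14692 genes. There, 29% of all genes passed as higher and 30.6% as lower. All OB libraries lay above all MSC libraries for 29 genes and below them for 3, against 28% and 27.1% of all genes. Of the genes that rose, 25 did so in both genotypes, which is 25 of 26 in wild-type and 25 of 29 in deficient mice. Isg20 passed in wild-type mice, and Bst2, Irf7, Mx1 and Usp18 passed in deficient mice, but for no gene of the 39 did the genotypes differ in this respect by the test given further on. Libraries were also paired by animal number, although it is not established that each OB library came from 1 mouse. In all 8 pairs 25 genes were higher in the OB library and 4 (Stat2, Irf1, Ifit3 and Mx2) lower, against 27.4% and 28.8% of 15556 genes.

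**Figure D1:**
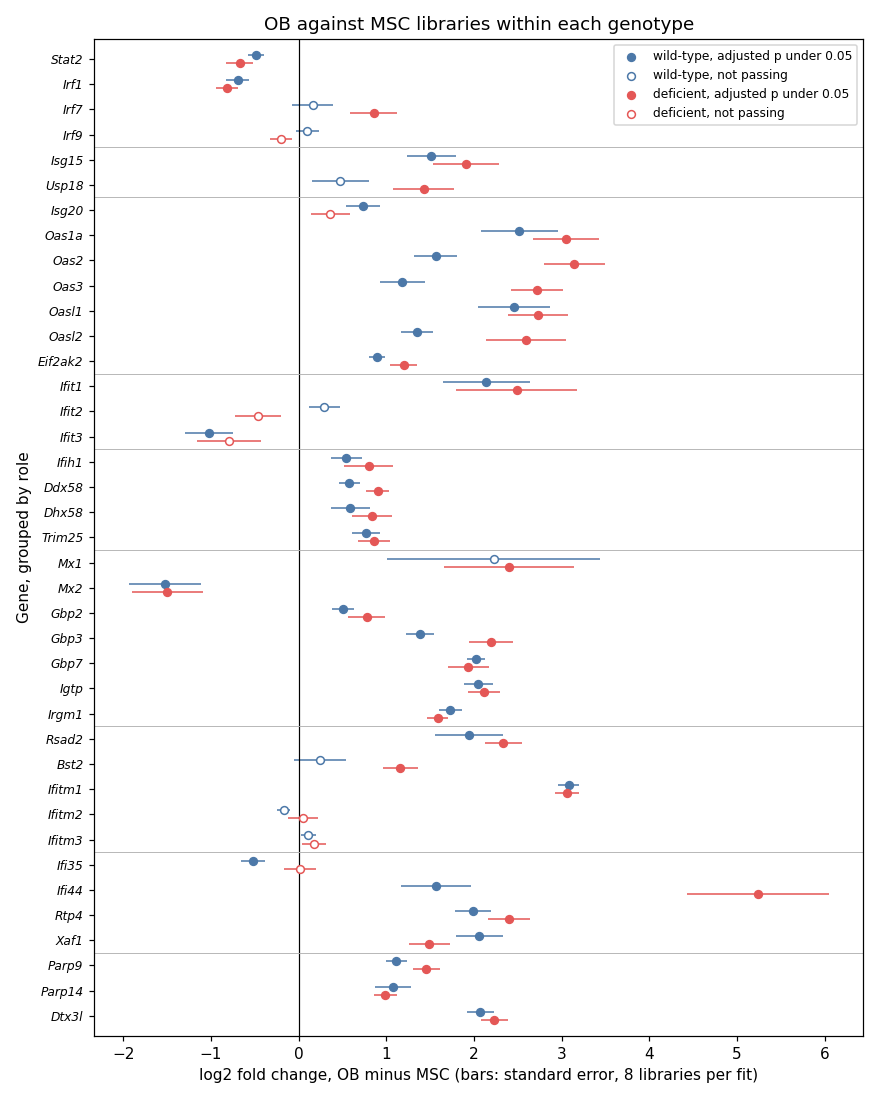
Log2 fold change of each of the 39 genes, OB minus MSC libraries, in wild-type (blue) and deficient mice (red), with bars for the standard error (8 libraries per fit) and filled points for adjusted p under 0.05 (limma). Points lie to the right of 0 for 26 and 29 passing genes, and Stat2, Irf1 and Mx2 lie to the left with filled points in both genotypes.

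Blood cell markers moved with this comparison. The summed level of 7 blood progenitor markers was 3482 to 5123 in wild-type MSCs and 16339 to 18526 in wild-type OBs, and that of 7 erythroid markers was 2265 to 4212 and 9741 to 10669. Endothelial markers (6) summed to 767 to 2339.7 and 4196 to 4504, with 2 of 6 (Pecam1 and Tek) above every MSC library. The endothelial markers did not move together. Cdh5 was lower in wild-type OBs (17.3, 45.5, 37.7 and 22.0) than in wild-type MSCs (98.5, 170, 338 and 82.7), and Kdr and Emcn overlapped. The sum of neutrophil markers (7 of 8 in the table) fell, from 28165 to 116847 to 7802 to 27739, as did that of marrow stroma markers (9), from 33404 to 70549 to 4067 to 8977. In deficient mice the order of these sums was alike for blood progenitor (2838 to 3123 and 14877 to 18055), erythroid (2189 to 6092 and 7569.8 to 11296) and endothelial markers (504 to 1416 and 3576 to 4584), and overlapped for marrow stroma (33184 to 50889.6 and 3501 to 39519). The part of the blood progenitor, erythroid and endothelial markers in the result was not tested. With the mean level of macrophage, neutrophil and B lineage markers as a covariate, 25 genes passed as higher and 0 as lower in wild-type mice (28 at an unadjusted p under 0.05), where 22.9% and 24.2% of all genes did. In deficient mice 21 and 1 (Irf1) passed, against 19.0% and 16.9% of all genes.

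Transcription factors that carry the signal were the role group in which higher levels in OBs were least common, with 0 of 4 higher and 2 of 4 lower in wild-type mice. Stat2, a transcription factor of the type I complex, had 852, 1056, 992 and 1034 normalized counts in wild-type MSCs (mice A to D) and 749, 695, 648 and 712 in wild-type OBs. Every OB value was below every MSC value, although the groups lay close together. Stat2 fell by 0.49 ± 0.093 on the log2 scale (adjusted p = 0.000763, limma) and, from 1175 ± 239 to 728 ± 62.9 (SD, n = 4), by 0.67 ± 0.15 in deficient mice (adjusted p = 0.00442). Irf1, which binds response elements and is itself induced by interferon gamma, had 5025, 5492, 5457 and 3544 in wild-type MSCs and 3313, 2743, 2985 and 2869 in wild-type OBs. Mouse D was lowest among the wild-type MSCs but still above all wild-type OB libraries. The log2 fold change of Irf1 was -0.69 ± 0.13, adjusted p = 0.000764 in wild-type mice and -0.82 ± 0.13, adjusted p = 0.000509 in deficient mice. Irf9, the DNA-binding part of the type I complex, had 583, 897, 797 and 681 in wild-type MSCs and 783, 823, 711 and 816 in wild-type OBs. Its groups overlapped, and it passed in neither genotype (0.10 ± 0.13, adjusted p = 0.511 in wild-type and -0.20 ± 0.13, adjusted p = 0.207 in deficient mice). Irf7, which amplifies type I interferon production, had 185, 377, 343 and 197 in wild-type MSCs and 282, 262, 313 and 319 in wild-type OBs, and 75.1, 138, 144 and 178 in deficient MSCs and 223, 249, 214 and 243 in deficient OBs (mice E to H). MSC mice B and C were above all wild-type OBs, so the wild-type groups overlapped, while the deficient groups did not. Irf7 rose in deficient mice (0.86 ± 0.26, adjusted p = 0.0184) and did not pass in wild-type mice (0.16 ± 0.23, adjusted p = 0.553).

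**Figure D2:**
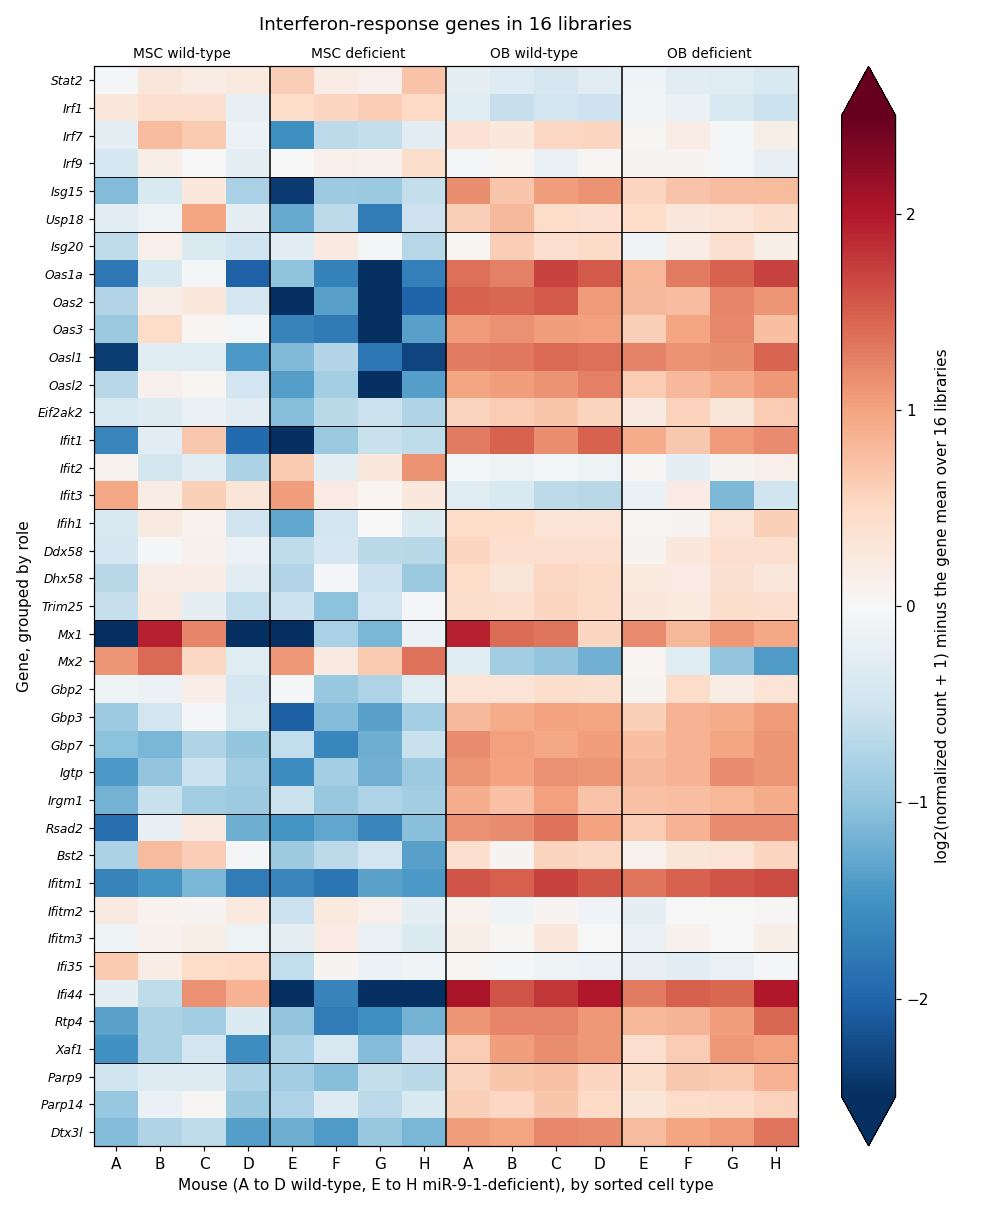
Level of each of the 39 genes (rows, grouped by role) in each of the 16 libraries (columns), as log2(normalized count + 1) minus the mean of the gene over the 16 libraries, with the colour scale ending at 2.5 in both directions. Most rows are red in the OB columns and blue in the MSC columns, while Stat2, Irf1, Ifit3 and Mx2 show the opposite, and mice B and C are redder than A and D in many wild-type MSC rows.

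The 4 genes for sensing viral RNA passed as higher in OBs in both genotypes, the calls of Dhx58 and Ifih1 less firmly. In wild-type mice the call of Dhx58 was lost without MSC mouse A or D and without OB mouse A, C or D, and in deficient mice that of Ifih1 without OB mouse G or H. With the blood-cell marker covariate the call of Dhx58 was lost in both genotypes and that of Ifih1 in deficient mice. Ifih1 and Ddx58 encode the sensors MDA5 and RIG-I, Dhx58 encodes their relative LGP2, and Trim25 encodes a ubiquitin ligase that acts on RIG-I. Their log2 fold changes were between 0.54 (Ifih1) and 0.77 (Trim25) in wild-type mice and between 0.80 (Ifih1) and 0.90 (Ddx58) in deficient mice. Ddx58 had 382, 497, 552 and 463 in wild-type MSCs and 747, 687, 690.1 and 684 in wild-type OBs. No MSC library reached the lowest OB library. The mean of Trim25 went from 1056 ± 299.7 to 1748 ± 67.8 (SD, n = 4).

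The oligoadenylate synthetases, which make the activator of the RNA-degrading enzyme RNase L, and their relatives rose together. With the kinase Eif2ak2, which halts translation on binding double-stranded RNA, and the exonuclease Isg20 they make a group of 7, all of which passed as higher in wild-type mice and 6 in deficient mice. Oas1a had 18.0, 49.2, 63.5 and 15.0 normalized counts in wild-type MSCs and 168, 155, 210.2 and 189 in wild-type OBs. The highest MSC library, mouse C, lay well below the lowest OB library, mouse B. Oas1a rose by 2.52 ± 0.44, adjusted p = 0.000399 (log2) in wild-type and by 3.05 ± 0.37, adjusted p = 0.000138 in deficient mice. Oasl1, a synthetase-like protein without the enzymatic activity, had 20.8, 90.6, 90.5 and 40.6 in wild-type MSCs and 278, 281, 299 and 293 in wild-type OBs. The OB values of Oasl1 lay within a narrow range, whereas those in MSCs of mice B and C were above those of A and D. Its log2 fold changes were 2.46 ± 0.41, adjusted p = 0.000308 in wild-type and 2.73 ± 0.34, adjusted p = 0.000155 in deficient mice. Oas2 had 16.4, 37.4, 13.1 and 23.4 in deficient MSCs and 172, 167, 228 and 211 in deficient OBs. All 4 deficient OB libraries stood several times above the highest deficient MSC library, mouse F. The log2 fold change of Oas2 was 3.15 ± 0.35, adjusted p = 8.49e-05 in deficient and 1.56 ± 0.25, adjusted p = 0.000192 in wild-type mice. Oas3 had 2.71 ± 0.30, adjusted p = 7.70e-05 and 1.18 ± 0.26, adjusted p = 0.00187 in the same order. Oasl2 was higher by 2.59 and 1.35, and Eif2ak2 by 1.20 and 0.90. Isg20 overlapped between the sorts and passed in wild-type mice (0.74 ± 0.20, adjusted p = 0.00623) but not in deficient mice (0.36 ± 0.22, adjusted p = 0.186).

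The 3 IFIT genes, whose proteins bind foreign RNA at its end or cap, went different ways. Ifit1 had 27.8, 73.8, 143 and 22.5 in wild-type MSCs and 221, 248, 200.4 and 247 in wild-type OBs. It varied widely between the MSC mice, with C highest and D lowest, and every OB library was higher still. Ifit1 rose by 2.14 ± 0.50, adjusted p = 0.00271 in wild-type and 2.49 ± 0.69, adjusted p = 0.0116 in deficient mice. Ifit3 had 122, 71.2, 94.5 and 76.6 in wild-type MSCs and 50.3, 47.5, 39.2 and 38.2 in wild-type OBs. All OB values of Ifit3 were below all MSC values in wild-type mice, with a log2 fold change of -1.02 ± 0.27, adjusted p = 0.00639, and the deficient groups overlapped (-0.79 ± 0.37, adjusted p = 0.0884). The call of Ifit3 was lost under quantile normalization (-0.53, adjusted p = 0.116). Ifit2 passed in neither genotype (0.29 and -0.46).

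Guanylate-binding proteins and immunity-related GTPases attack pathogen-containing vacuoles, and the 5 among the 39 genes (Gbp2, Gbp3, Gbp7, Igtp and Irgm1) rose in OBs in both genotypes. Of their relatives in the wider pathway list, Gbp5, Ifi47, Iigp1 and Irgm2 also rose in both, Gbp4 passed in neither, and Gbp6 (-1.13 ± 0.26, adjusted p = 0.00252) and Gbp9 (-0.89 ± 0.34, adjusted p = 0.038) fell in wild-type mice and did not pass in deficient mice (-0.016 and 0.28). Igtp had 187, 256, 351 and 279.5 in wild-type MSCs and 1094, 1031, 1133 and 1101 in wild-type OBs. Values in OBs were about as even as those of Oasl1, and mouse A was lowest in MSCs. The log2 fold changes of Igtp were 2.05 ± 0.16, adjusted p = 1.02e-06 in wild-type and 2.12 ± 0.18, adjusted p = 2.30e-05 in deficient mice. Gbp7 rose by 2.03 and 1.94, Irgm1 by 1.73 and 1.59, and Gbp2 by 0.50 and 0.78. Gbp3 had a larger estimate in deficient (2.20 ± 0.25, adjusted p = 9.73e-05) than in wild-type mice (1.38 ± 0.16, adjusted p = 2.18e-05), a difference that did not pass its own test.

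Mx1 and Mx2, dynamin-like GTPases that block virus replication, were low and went opposite ways in deficient mice. Mx1 had 0, 40.1, 24.3 and 0 normalized counts in wild-type MSCs and 40.1, 27.3, 26.4 and 14.7 in wild-type OBs. Mice A and D were at 0 in MSCs, and mouse B was about as high as the highest OB library. Mx1 passed in deficient mice, where MSCs had 0, 5.15, 3.92 and 8.77 and OBs 23.5, 18.2, 21.9 and 20.3 (2.40 ± 0.74, adjusted p = 0.0193). It did not pass in wild-type mice (2.23 ± 1.21, adjusted p = 0.124). All deficient MSC values of Mx1 lay below the minimum level for testing, so it entered that test through its OB values alone. Whichever deficient OB library was left out, Mx1 became too low to test and the call was lost. Mx2, which GENCODE M21 lists as a polymorphic pseudogene, had 112, 139.8, 74.3 and 42.1 in wild-type MSCs and 41.6, 28.0, 25.6 and 22.0 in wild-type OBs. Here the lowest MSC library, mouse D, was barely above the highest OB library, mouse A. Mx2 fell in wild-type (-1.52 ± 0.41, adjusted p = 0.00629) and in deficient mice (-1.49 ± 0.41, adjusted p = 0.0105). Quantile normalization left the wild-type call of Mx2 short of the threshold (-0.96, adjusted p = 0.0675).

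The membrane factors held the gene with the smallest adjusted p of the 39. Ifitm1, one of the interferon-induced transmembrane proteins that hinder virus entry, had 311, 356, 446 and 295 in wild-type MSCs and 2925, 2776, 3182 and 2909 in wild-type OBs. Its deficient groups were at 316, 279.7, 388 and 364 in MSCs and 2492, 2738, 2928 and 3069.6 in OBs. In both genotypes the lowest OB library stood several times above the highest MSC library. The log2 fold change of Ifitm1 was 3.08 ± 0.12, adjusted p = 1.02e-08 in wild-type and 3.06 ± 0.13, adjusted p = 1.30e-06 in deficient mice. Its neighbours Ifitm2 (-0.17 and 0.049) and Ifitm3 (0.11 and 0.18) passed in neither genotype. Rsad2, which encodes viperin, an enzyme at the endoplasmic reticulum, rose by 1.94 ± 0.38, adjusted p = 0.00095 in wild-type and 2.33 ± 0.21, adjusted p = 2.86e-05 in deficient mice. Bst2, the tether that holds budding virus at the cell surface, passed in deficient mice (1.16 ± 0.20, adjusted p = 0.000976) and not in wild-type mice (0.25 ± 0.29, adjusted p = 0.473).

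Isg15, the ubiquitin-like modifier, had 56.9, 93.2, 146 and 69.1 in wild-type MSCs and 275, 198, 253 and 268 in wild-type OBs, without overlap. It rose by 1.52 ± 0.28, adjusted p = 0.00061 in wild-type and 1.91 ± 0.38, adjusted p = 0.00184 in deficient mice. Usp18, which removes Isg15 from proteins and dampens receptor signalling, overlapped in wild-type mice (0.48 ± 0.32, adjusted p = 0.204) and rose in deficient mice (1.43 ± 0.35, adjusted p = 0.00623). Parp9 and Dtx3l, partners in an ADP-ribosylation and ubiquitin ligase complex, and their relative Parp14 all rose in both genotypes. Dtx3l had 283, 356, 389 and 231 in wild-type MSCs and 1249, 1197, 1397 and 1376 in wild-type OBs. The lowest OB value, in mouse B, was far above the highest MSC value, in mouse C. The log2 fold change of Dtx3l was 2.07 ± 0.15, adjusted p = 5.67e-07 in wild-type and 2.23 ± 0.16, adjusted p = 8.93e-06 in deficient mice, and those of Parp9 and Parp14 in wild-type mice were 1.12 and 1.07.

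Of the remaining genes, Rtp4 (a chaperone-like protein induced by interferon), Xaf1 (a binding partner of an apoptosis inhibitor) and Ifi44 rose in both genotypes. Ifi44, a protein with a GTP-binding domain, had 0, 10.3, 0 and 4.38 in deficient MSCs and 86.7, 99.7, 96.5 and 142 in deficient OBs. Mice E and G were at 0 in MSCs, and only mouse F reached the minimum of 10 for testing. Ifi44 therefore met the filter in deficient mice through its OB values. The log2 fold change of Ifi44 was 5.24 ± 0.81, adjusted p = 0.000474 in deficient and 1.57 ± 0.40, adjusted p = 0.00457 in wild-type mice, and the first of these rests on MSC values of 0 in 2 of 4 libraries. Ifi35 had 407, 295, 355 and 365 in wild-type MSCs and 264, 253, 236 and 233 in wild-type OBs. It fell in wild-type mice (-0.52 ± 0.13, adjusted p = 0.0048), while in deficient mice MSCs and OBs overlapped (0.021 ± 0.18, adjusted p = 0.93).

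The second comparison was deficient against wild-type within MSCs, which asks what the loss of miR-9-1 changes in this sort. Ddx3y was high and Xist low in wild-type mouse A and in deficient mice E and F, so sex was not balanced between the groups. No fit held sex as a term, and its part was not tested. Most of the genes had lower estimates in deficient MSCs, led by Oas2, Oas3, Ifi44 and Oasl2, and none passed the test. Of 38 genes tested (Mx1 was too low), 0 passed over 14964 genes, where 1.06% of all genes did, and 12 had an unadjusted p under 0.05, against 22.8% of all genes. Log2 fold changes were above 0 for 8 of the 38 and for 47.3% of all genes. The median was -0.39, against -0.033 over all genes. Deficient libraries all lay below wild-type ones for 8 genes (Irf7, Oas2, Oas3, Oasl2, Usp18, Ifi35, Ifi44 and Eif2ak2) and above them for 1 (Irf1), against 6.1% and 6.3% of all genes.

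The count of 0 depended on the tool and on 1 library. edgeR on recovered reads also called 0 of the 38 genes, DESeq2 called 6 lower (Bst2, Ifi44, Irf7, Oas2, Oas3 and Oasl2), and limma with array weights called 7 lower. Of all genes, DESeq2 called 3.42% lower and 7.97% in either direction, and array weights 6.15% and 11.5%. Without the deficient MSC library of mouse F, 5 were called lower (Ifi35, Ifi44, Oas2, Oas3 and Oasl2) and Ifit2 higher. In that setting 15.3% of all 14775 genes were called, a share close to that of the members.

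Oas2 had 58.3, 107, 116 and 72.1 normalized counts in wild-type MSCs and 16.4, 37.4, 13.1 and 23.4 in deficient MSCs. Its groups did not overlap, and mouse F was the highest of the deficient libraries. The log2 fold change of Oas2 was -1.98 ± 0.46 (adjusted p = 0.0608, limma). Oas3 had 69.4, 183, 138 and 131 in wild-type and 41.1, 38.7, 22.2 and 51.1 in deficient MSCs. The lowest wild-type library, mouse A, was above the highest deficient library, mouse H. Oas3 gave -1.72 ± 0.40, adjusted p = 0.0611. Ifi44 had 29.1, 22.0, 78.3 and 64.6 in wild-type MSCs, against 0, 10.3, 0 and 4.38 in deficient MSCs. These levels are low, and the estimate of -3.96 ± 1.00 (adjusted p = 0.0723) depends on the 1 added to each value before the logarithm. Of the deficient MSCs only mouse F reached the minimum for testing, so Ifi44 met the filter here through its wild-type values. Oasl2, a second synthetase-like gene, had 186, 328, 312 and 218 in wild-type and 116, 168, 30.1 and 115 in deficient MSCs. The groups did not overlap, and mouse G was far below the other deficient libraries. Oasl2 gave -1.47 ± 0.46, adjusted p = 0.113.

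Among the transcription factors, Irf7 had non-overlapping groups with wild-type mice B and C highest, and its estimate was -1.03 ± 0.33, adjusted p = 0.116. Irf1 had 5649.6, 5969, 6249.6 and 5805 in deficient MSCs, all above the highest wild-type library, with 0.30 ± 0.16, adjusted p = 0.278. Stat2 (0.24 ± 0.16, adjusted p = 0.398) and Irf9 (0.29 ± 0.17, adjusted p = 0.314) had estimates above 0 and overlapping groups. The 4 RNA sensor genes had estimates between -0.48 (Ddx58) and -0.22 (Trim25), with no call. Ifitm1 (-0.055 ± 0.19), Gbp7 (-0.033 ± 0.24) and Parp14 (-0.036 ± 0.24) had estimates near 0. Ifit2 had the highest estimate (0.82 ± 0.29, adjusted p = 0.135) and Ifi44 the lowest.

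**Figure D3:**
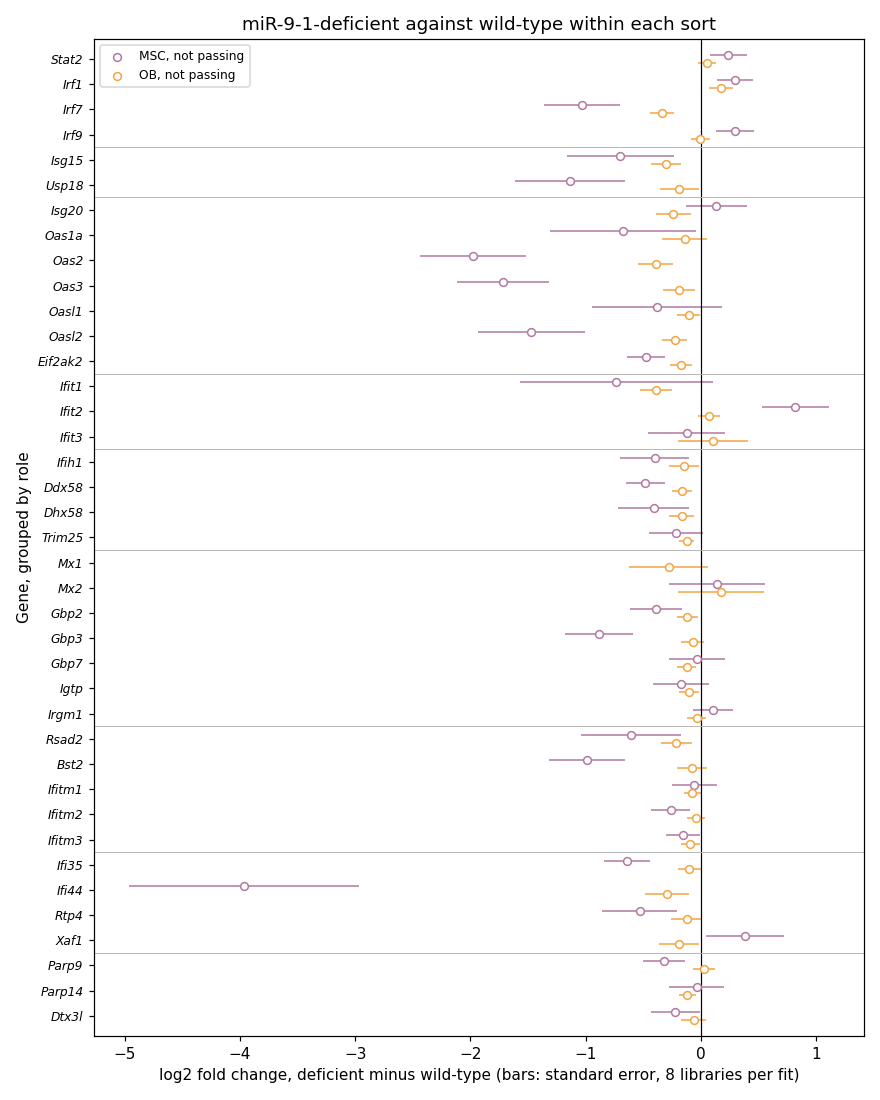
Log2 fold change of each gene, deficient minus wild-type, within MSCs (purple) and within OBs (orange), with bars for the standard error (8 libraries per fit). Every point is open because no gene passed (limma, adjusted p under 0.05), the MSC points spread from -3.96 (Ifi44) to 0.82 (Ifit2), and the OB points lie between -0.39 (Oas2) and 0.18 (Irf1).

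The wild-type MSC libraries differed among themselves in these genes. The mean log2 level of the 39 genes was 7.44, 8.09, 8.22 and 7.54 in mice A to D, and 7.12, 7.47, 7.21 and 7.53 in mice E to H. Mice B and C thus stood above the other 6 MSC libraries, while A lay within the range of the deficient libraries and D just above it. Mouse C was highest of the wild-type MSCs for 19 genes, B for 15, A for 3 and D for 2, and both B and C were above both A and D for 26 of the 39 and below both for 2. Over 15556 genes these shares were 18.5% and 17.8%. The pair B and C was picked from the levels of these same genes, so the counts describe the pattern and do not test it. In OBs the mean level was 8.59 to 8.85 over all 8 libraries. The median coefficient of variation of the 39 genes was 25.7% in wild-type MSCs, 27.5% in deficient MSCs, 6.98% in wild-type OBs and 12.1% in deficient OBs.

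Markers of other cells moved with the same libraries. The 5 plasmacytoid dendritic markers summed to 132, 2022, 581 and 434 in wild-type MSCs and to 1.17 to 150.3 in deficient MSCs, where Klk1 was at 0. Plasmacytoid dendritic cells are known as strong producers of type I interferon. Neutrophil markers summed to 51504, 116847, 105388 and 28165 in mice A to D and to 29127 to 59639 in deficient MSCs. B lineage markers were 717 to 941 in wild-type and 224 to 306 in deficient MSCs, with 8 of 9 lower in every deficient library and Vpreb1 at 0 in all 4. Skeletal muscle markers were 197 to 466 in wild-type MSCs and 406 to 5158 in deficient MSCs. The first covariate tried was the mean level of macrophage, neutrophil and B lineage markers. With it the median genotype effect over the 38 genes was 0.15 in place of -0.39. The second, chosen after seeing the data, was the mean level of the plasmacytoid dendritic markers, and it gave 0.020. Over all 14964 genes, 159 were called without a covariate, 3 with the first and 0 with the second. The B lineage markers were themselves mostly lower in deficient MSCs. The plasmacytoid dendritic sums were lower there than in wild-type mice B to D, while mouse A lay within the deficient range. Of these 5 markers 2 (Pacsin1 and Klk1) were lower in every deficient library. These fits therefore cannot tell genotype and marker levels apart. The part of B lineage and muscle markers by themselves in the MSC result was not tested.

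**Figure D4:**
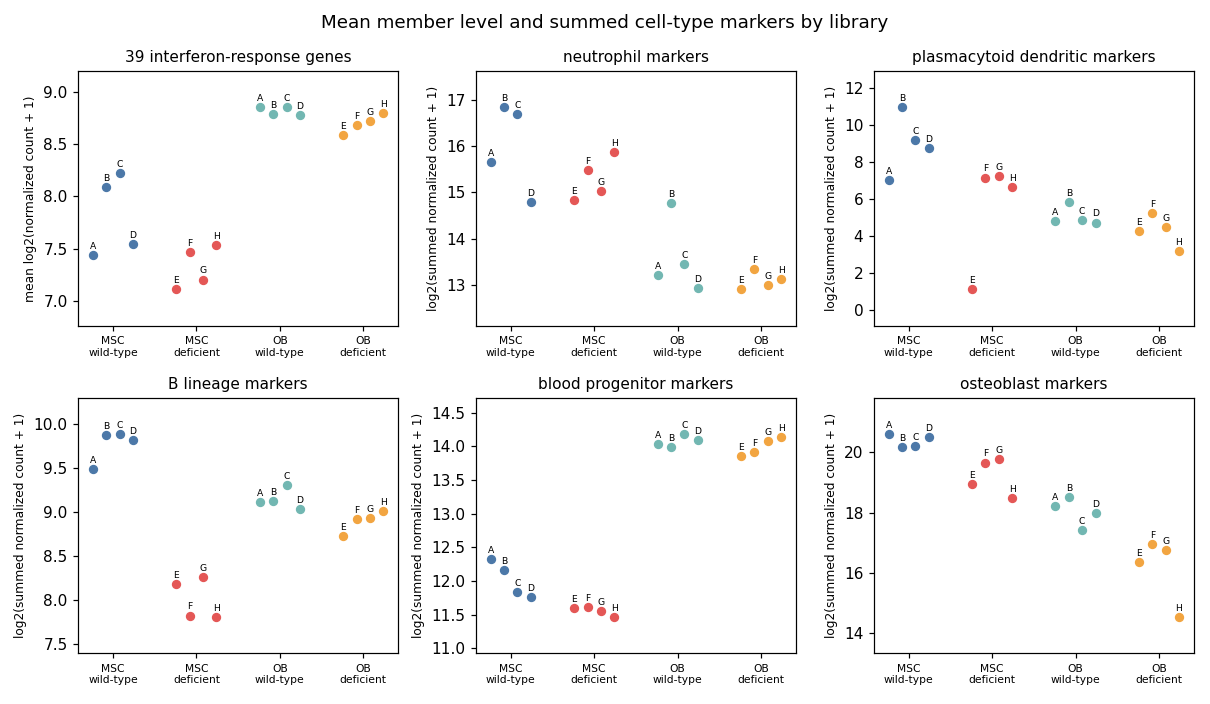
Mean log2 level of the 39 genes (first panel) and summed marker levels on a log2 scale (other panels) in each library, with 1 point per mouse and letters for the mice. Mice B and C are the highest MSC libraries for the interferon-response genes and for neutrophil markers, mouse B is highest for plasmacytoid dendritic markers, and the OB libraries lie above the MSC libraries for the interferon-response genes and for blood progenitor markers.

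The third comparison was deficient against wild-type within OBs. Effects were small, and no gene passed. All 39 genes were tested, 0 passed over 14229 genes, where 0.0281% of all genes (4) did, and 4 had an unadjusted p under 0.05, against 8.95% of all genes. edgeR and DESeq2 also called 0. Estimates were above 0 for 6 of the 39 and for 43.8% of all genes, with a median of -0.12 against -0.022 over all genes. Groups were apart for Irf7 alone, in the lower direction, where 2.99% of all genes were lower without overlap and 2.47% higher.

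Irf7 had 282, 262, 313 and 319 in wild-type OBs and 223, 249, 214 and 243 in deficient OBs. The lowest wild-type library, mouse B, was slightly above the highest deficient library, mouse F. Irf7 gave -0.34 ± 0.11, adjusted p = 0.379. Ifit1 had 221, 248, 200.4 and 247 in wild-type and 169.7, 143, 187 and 204 in deficient OBs. Mouse H overlapped the wild-type range at mouse C. The estimate of Ifit1 was -0.39 ± 0.14, adjusted p = 0.44. Oas2 gave -0.39 ± 0.15, adjusted p = 0.476 and Isg15 -0.30 ± 0.13, adjusted p = 0.544, and these were the other 2 with an unadjusted p under 0.05. Stat2 (0.053 ± 0.080), Irf9 (-0.0029 ± 0.083) and Irf1 (0.18 ± 0.11) were within 2 standard errors of 0. Mouse E was the lowest deficient OB library for 24 of the 39 genes and mouse H the highest for 22.

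The difference between the genotype effects, OBs minus MSCs, was fitted over all 16 libraries. No gene of the 39 passed over 15556 genes, where 0.0129% of all genes (2) did, and 8 had an unadjusted p under 0.05, against 11.5% of all genes. edgeR called 0 of the 39, and DESeq2 and limma with array weights both called Ifi44, Oas2 and Oas3, where they called 0.913% and 0.9% of all genes. Without the deficient MSC library of mouse F, Ifi44 and Oas2 were called, with 3.69% of all genes. Estimates were above 0 for 29 of 39 and for 53.5% of all genes, and the median was 0.26 against 0.039 over all genes. Ifi44 gave 3.67 ± 0.93, adjusted p = 0.233, Oas3 1.53 ± 0.40, adjusted p = 0.248 and Oas2 1.58 ± 0.43, adjusted p = 0.251. Gbp3 gave 0.81 ± 0.31, adjusted p = 0.361. In each of these 4 genes the deficient MSC group was the lowest of the 4 groups, as the plot of levels by library shows. The transcription factors gave -0.19 (Stat2), -0.12 (Irf1), -0.30 (Irf9) and 0.69 (Irf7), with no call. This comparison shares libraries with all the others.

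**Figure D5:**
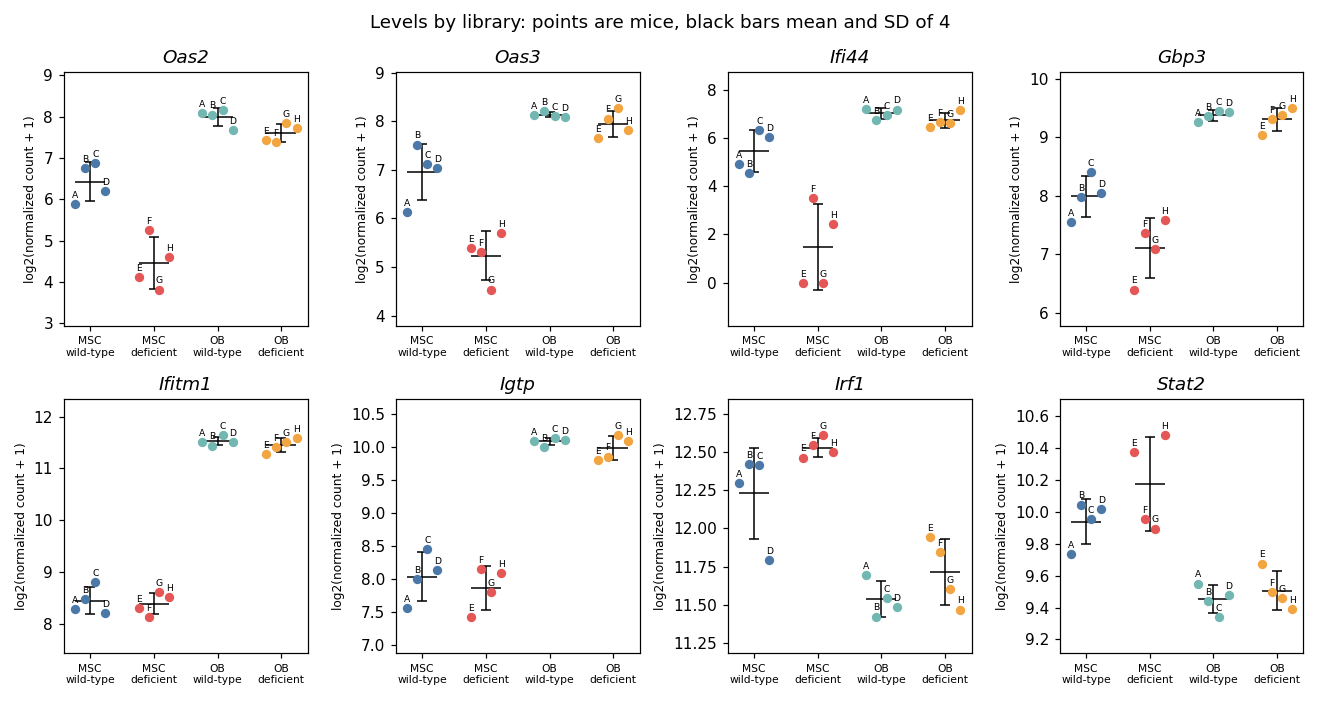
Levels of 8 genes as log2(normalized count + 1), with 1 lettered point per mouse in each of the 4 groups and bars for the mean and SD of 4. For Oas2, Oas3, Ifi44 and Gbp3 the deficient MSC group is lowest, and for Ifitm1 and Igtp both OB groups lie above both MSC groups. For Irf1 and Stat2 each OB group lies below the MSC group of its genotype. For Irf1, wild-type MSC mouse D lies below deficient OB mice E and F.

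Levels were compared between genes as normalized counts per kilobase of annotated exon. In wild-type MSCs Ifitm2 (4024 ± 263, SD, n = 4), Ifitm3 (3448 ± 337) and Irf1 (1227 ± 230.2) were highest, and Mx1 (4.26 ± 5.20) and Ifi44 (7.92 ± 4.44) lowest. In wild-type OBs Ifitm3 (3721 ± 299), Ifitm2 (3581 ± 249) and Ifitm1 (2695 ± 155) were highest and Mx1 (7.16 ± 2.74) and Mx2 (8.11 ± 2.37) lowest. In OBs Ifitm2 and Ifitm3 differed by less than the SD of either. Stat2 ranked 9 of 39 in wild-type MSCs and 20 in wild-type OBs, and Irgm1 ranked 15 and 9.

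The rest of the pathway was followed in a list of 92 other genes, of which 82 were in the table. Interferons themselves were at or near the detection limit. Of 6 interferon genes in the table (Ifnb1, Ifna1, Ifna2, Ifna13, Ifnk and Ifng) none was high enough to test, and the highest value among them was 10.3 normalized counts of Ifnb1 in the wild-type OB library of mouse D. Ifng was at 0 in 15 of 16 libraries. Receptors showed no common direction between the sorts. In wild-type mice Ifnar1 went from 1509 ± 92.4 in MSCs to 1468 ± 65.1 in OBs (SD, n = 4), with a log2 fold change of -0.039 ± 0.072, adjusted p = 0.648. Ifnar2 gave 0.33 ± 0.14, adjusted p = 0.0551, just short of the threshold. Ifngr1 rose (0.46 ± 0.12, adjusted p = 0.0056) and Ifngr2 fell (-0.47 ± 0.12, adjusted p = 0.00401), and neither passed in deficient mice (-0.29 and 0.085). Ifnlr1, a chain of the lambda interferon receptor, fell in wild-type (-1.88 ± 0.42, adjusted p = 0.00206) and in deficient mice (-1.78 ± 0.52, adjusted p = 0.0146).

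Of 75 pathway genes tested between the sorts, 37 rose and 17 fell in wild-type mice, and 35 rose and 10 fell in deficient mice. Over all genes 34.4% and 35.5% passed as higher and lower in wild-type mice and 29% and 30.6% in deficient mice. Of 11 inhibitors and related genes that restrain the response, 6 rose, among them the phosphatase gene Ptpn6 (1.42 ± 0.21, adjusted p = 0.000104) and the DNase gene Trex1 (1.26 ± 0.14, adjusted p = 1.27e-05 in wild-type mice), and 2 fell, with the same counts in deficient mice. Socs1 and Socs3, which block receptor-bound kinases, were those that fell, in wild-type mice (-2.08 ± 0.11, adjusted p = 6.75e-08 and -2.46 ± 0.11, adjusted p = 2.13e-08) and in deficient mice (-1.96 and -2.48). Gbp5 (3.15 ± 0.44, adjusted p = 7.87e-05), the immunity-related GTPase Ifi47 (2.72 ± 0.17, adjusted p = 1.94e-07), and the DNA sensor Aim2 (2.64 ± 0.24, adjusted p = 2.59e-06) rose in wild-type mice. Nlrc5, the activator of class I antigen presentation genes, rose by 2.88 ± 0.14, adjusted p = 2.00e-06 and Trim30a by 2.61 ± 0.24, adjusted p = 3.23e-05 in deficient mice. Ifi204 and Phf11d fell in deficient mice (-2.72 ± 0.25, adjusted p = 3.07e-05 and -2.06 ± 0.57, adjusted p = 0.0117), and Ifi204 also in wild-type mice (-1.97 ± 0.24, adjusted p = 3.01e-05). Some genes were at 0 in a whole group and get no fold here. Ifi44l was at 0 in all 4 wild-type MSC libraries and at 33.0, 23.4, 19.6 and 62.4 in wild-type OBs, and Ifi205 was at 37.5, 102, 39.2 and 30.1 in wild-type MSCs and at 0 in all 4 wild-type OBs. Oas1g was at 0 in all 4 deficient MSC libraries and at 22.0, 44.3, 30.0 and 49.6 in deficient OBs. In wild-type mice Oas1c gave 2.51 ± 1.01, adjusted p = 0.0457 (limma), with overlapping groups. It had 62.4, 5.18, 0 and 7.51 in MSCs and 44.8, 31.9, 47.5 and 47.0 in OBs. MSC mouse A was above every OB library, and MSC mice B to D lay below the minimum of 10. Oas1c thus met that minimum through its OB values.

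Genotype effects on the pathway genes did not pass the limma test. In MSCs limma called 0 of 73 tested and edgeR 0, while DESeq2 called 16, and 31 had an unadjusted p under 0.05 (limma), where 7.97% of all genes were called by DESeq2 and 22.8% had an unadjusted p under 0.05. In OBs all 3 tools called 0 of 74, with 1 unadjusted. For the difference limma and edgeR called 0 of 75 and DESeq2 2, with 29 unadjusted, against 11.5% of all genes.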

How the data were processed

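Groups follow the genotype and cell type in the labels, with 4 libraries in each of MSC and OB, wild-type and miR-9-1-deficient. The authors deposited 1 table of normalized counts (signal) per gene symbol, and DESeq2 1.24.0 and the mm10 build are named per the submitters' processing notes. The aligner, the counting program and the annotation were not given in the sources used here. Multiplying by 1 size factor per library (0.665 to 0.852 in MSCs, 1.27 to 1.54 in OBs) made all values whole within 0.01 and so gave the reads. MSC depth was 10148197 to 14246986 reads and OB depth 15543693 to 18962771, which limits genes near 3 reads.

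Tests used limma 3.58.1 (R 4.3.3) on log2(normalized count + 1), with empirical Bayes and trend, for every gene that reached 10 in 4 or more libraries of a fit. Errors of log2 fold changes are standard errors. Benjamini-Hochberg adjustment ran over all genes tested, and a gene passed at an adjusted p under 0.05. The added 1 understates fold changes of low genes. The code was tested on simulated data.

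The 39 genes and all gene and marker lists were chosen with earlier results of these data known. Values in every library are given for Stat2, Irf9, Irf7 and Irf1 and, per comparison and direction, for up to 5 passing genes with the largest change, or the 4 smallest p where fewer than 4 pass. The per-library values of Ddx58, Igtp and Mx1, and those of Isg15 between the sorts, lie outside that rule and were chosen after the values were seen. The pathway list has 92 symbols, with Sting1 and Cgas also under the older symbols Tmem173 and Mb21d1. One gene that the rule names is not reported here. Under their listed symbols 82 were in the table, where the markers Adgre1, Ly6g and Trbc2 were not found. Exon lengths and positions are from GENCODE M21 (GRCm38).

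Libraries with the same animal number were taken as 1 mouse. Their deviations from the group means correlated with r from 0.0241 to 0.285, and 7 of 8 mice correlated best with themselves.

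Alternatives changed the pseudocount (5), the filter (none, or 50), the scaling (quantile), the weights (array weights) or the tool (edgeR 4.0.16 quasi-likelihood and DESeq2 1.42.0, both on the recovered reads). Others put all 16 libraries in 1 fit, added the animal number series, marker levels or the mouse as terms, or left libraries out. The plasmacytoid dendritic covariate was chosen after seeing the data.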

Additional observations from a re-analysis of the deposited data

Results flagged for a closer look

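Each gene was checked in each group of 4 for a highest or lowest library that stood apart from the rest (a gap over 0.829 of the range). Of 156 such checks 3 were met, and chance alone gives about 1 in 20. Ifit3 in deficient MSCs was 129 normalized counts in mouse E, with the next highest at 74.5 and the lowest at 64.1. Usp18 in wild-type MSCs was 109 in mouse C, with the next at 50.5 and the lowest at 45.8. Ddx58 in wild-type OBs was 747 in mouse A, with the next at 690.1 and the lowest at 684, a small step on a narrow range.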

How the results depend on the processing

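In MSCs the number of the 38 genes called between genotypes went from 0 to 7 with array weights, 6 with DESeq2 and 12 (1 higher, 11 lower) with all 16 libraries in 1 fit, where 11.5%, 7.97% and 15.0% of all genes were called. It was 0 to 6 when 1 library was left out. The median effect there was 0.15 with the blood-cell covariate and 0.020 with the plasmacytoid dendritic covariate. Of all genes, 3 and 0 were then called, against 159 in the main fit, and neither covariate can be separated from genotype here. In OBs the median was -0.038 without mice E and F. Leaving out 1 library gave medians of 1.26 to 1.50 between the sorts in deficient mice. For the difference of effects 3 genes were called with array weights, 3 with DESeq2 and 0 to 2 with 1 library left out. The cause of these changes was not tested. Across all genes, the number called ranged from 0 to 2261 for genotype in MSCs, 3 to 191 in OBs and 0 to 571 for the difference.

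Effects of transcription factors that lay near 0 changed sign. Leaving out 1 library gave -0.0041 (without mouse E) to 0.090 for Stat2 in OBs, -0.049 to 0.059 for Irf9 in OBs, -0.0081 to 0.20 for Irf9 and -0.0050 to 0.34 for Irf7 between the sorts in wild-type mice (both lowest without MSC mouse A), and -0.20 to 0.024 for the difference of effects of Irf1. Without mice E and F the OB effect of Stat2 was -0.028 and that of Irf1 -0.0031. Irf9 in OBs was 0.014 with quantile normalization, 0.027 with edgeR, 0.020 with DESeq2 and 0.019 with the blood-cell covariate, which also gave 0.033 for Irf9 between the sorts in deficient mice.

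With the mouse as a replicate block 26 genes were higher and 5 lower in wild-type mice and 29 and 3 in deficient mice, as without it, and 0 passed for the difference. The shares of all genes in that setting were 34.2% and 35.3% in wild-type mice, 29.3% and 31.8% in deficient mice, and 0.0193% for the difference. Quantile normalization moved the median over all genes between the sorts from 0.013 to 0.17 in wild-type and from -0.023 to 0.10 in deficient mice. Of the 39 genes, 29 were then higher and 3 lower in wild-type mice, against 39.7% and 30.6% of all genes. In deficient mice 30 were higher and 3 lower, against 33.0% and 26.9% of all genes. Calls lost with the blood-cell covariate were 7 in wild-type mice (Stat2, Irf1, Ifit3, Mx2, Ifi35, Dhx58 and Ifi44, with Mx1 gained) and 10 in deficient mice (Stat2, Mx2, Irf7, Bst2, Dhx58, Ifih1, Ifit1, Mx1, Oasl2 and Usp18). Quantile normalization lost Mx2 and Ifit3 in wild-type mice and gained Ifitm3, Mx1 and Usp18. In deficient mice Irf7 and Dhx58 were not called without OB mice E and F, and Mx1 and Ifi44 were then too low to test. Mx2, Dhx58 and Gbp2 were not called without MSC mice G and H. Genotype effects rest on 4 libraries a group, and for OBs it is not established that these are independent mice. MSC depth limits genes such as Mx1 and Ifi44, and no protein was measured.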

Other observations

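Genes with a gamma-activated site in the promoter window were found on both sides of the comparison of the sorts. Of the 10 such genes, Oas1a, Gbp7, Igtp, Eif2ak2 and Isg20 were higher in wild-type OBs, Irf1 and Ifi35 were lower, and Ifit2, Ifitm3 and Bst2 did not pass. Over all 14696 genes, 34.4% passed as higher and 35.5% as lower, so genes on both sides are common in any list. Response element cores were likewise found upstream of Stat2, at -222 to -213, and of Ifit3, at -156 to -147 and -122 to -113, both of which were lower in wild-type OBs.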
